A study of Mus musculus with 6 samples.

Results

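The 26S proteasome is the ATP-driven protease that breaks down ubiquitin-tagged proteins, and its genes were examined in gastruloids, aggregates of mouse E14 embryonic stem cells that can form a posterior pole in culture. The members were all count table rows whose symbol begins with Psm, carries a letter from a to g and ends in a number. Pomp and Adrm1 were added, and the rule used names and no measured value. Members and the further gene lists were, however, chosen with earlier results of these data known. The rule gave 50 of 53819 gene symbols. These were 19 subunits of the 20S core particle, 18 subunits of the 19S regulatory particle, 8 assembly factors and 5 other activators and inhibitors. Polyadenylated RNA was sequenced in 3 samples of E14 aggregates given the synthetic glucocorticoid budesonide for 80 h and in 3 samples of untreated E14 aggregates. The labels give neither the dose nor a vehicle, do not say whether both groups were collected at the same time, and give no word on whether each replicate was its own culture. The p-values therefore reflect only how far these libraries differ from each other, a spread that may be technical.

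In the core particle a stack of alpha and beta rings encloses the catalytic beta subunits, and the regulatory particle, made of a base with ATPases and a lid, recognises, unfolds and feeds in the substrate. The transcription factor NFE2L1 is known to raise many of these genes together when proteasome activity falls short. Some tissues swap subunits: interferon induces the immunoproteasome subunits Psmb8, Psmb9 and Psmb10 and the activator made of Psme1 and Psme2, the thymus uses Psmb11, and spermatocytes use Psma8 in place of the alpha subunit Psma7, often together with the activator Psme4 (PA200). Pluripotent stem cells are known for high proteasome activity.

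Libraries held 5666168 to 7476862 counted reads. Pluripotency markers, which define the labelled stem cells, were abundant: the summed level of 8 such genes, in CPM (reads scaled to a common library size), was 1953.8 to 2161.3 CPM in budesonide libraries and 1361.9 to 1415.4 CPM in untreated libraries. Of 10 haematopoietic markers 9 averaged under 5 CPM, the summed level being 53.3 to 64.5 CPM in budesonide libraries and 26.8 to 30.2 CPM in untreated libraries, most of the difference in Laptm5. Of 8 fibroblast and feeder markers 6 averaged under 5 CPM, with sums of 15.6 to 17.8 CPM in budesonide libraries and 23.4 to 26.6 CPM in untreated libraries. None of these markers was at 0 in all libraries. In bulk RNA, fewer cells of a type and less RNA per cell cannot be told apart.

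Most proteasome genes had fold changes close to zero on the log2 scale. Of the 50 members 48 had enough reads for a test, and 5 of these were higher and 1 was lower with budesonide at an adjusted p under 0.05 (edgeR, Benjamini-Hochberg over all genes). That is 12.5% of the members tested, against 28.7% of all 17155 genes tested (15.2% higher and 13.5% lower). In DESeq2 3 members were higher and none lower, and 22.4% of all genes were called. Among genes averaging at least 10 CPM, a limit set after the values were seen, 6 of 44 members (13.6%) passed, against 41.7% of all such genes. The libraries of the groups did not overlap for 17 members (35.4%), against 39.6% of all genes tested. Of the 48 members tested, 13 (27.1%) were higher in this way, against 19.8% of all genes, and 4 (8.33%) were lower, against 19.8% of all genes. The median log2 fold change of budesonide over untreated was 0.06 for the members and -0.02 for all genes, and with no scaling factors the members' median was -0.01 and that of all genes -0.10. A log2 fold change within 0.2 of zero was found for 77.1% of members and 41.4% of all genes. These shares were not matched by level: 44 of the 48 members averaged at least 10 CPM, against 8935 of all 17155 genes.

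**Figure D1:**
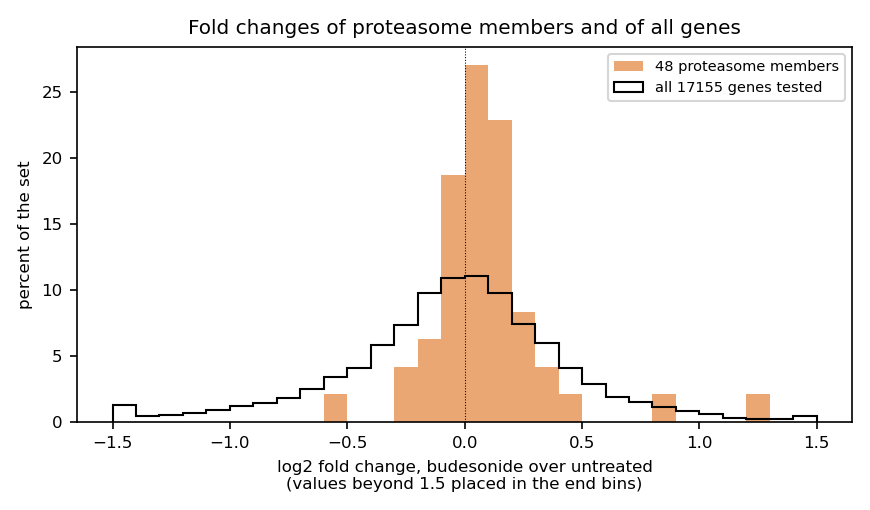
Percent of genes (vertical axis) by log2 fold change of budesonide over untreated (horizontal axis), for the 48 tested proteasome members (filled) and all 17155 tested genes (black outline). The members gather near zero, with 77.1% within 0.2 of it against 41.4% of all genes, not matched by level. Psma8 is the highest member at 1.25.

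The 5 members that rose were Psma8, Psme4, Psmb1, Psma6 and Psmd12, and the member that fell was Psma4. The first 3 passed in each of 15 alternative analyses (other scalings, filters, tools and omitted libraries), and the other 3 lost their call in some. Upper quartile scaling gave 3 higher and 4 lower members, and no scaling factors gave 3 higher and 5 lower. Over all genes, too, lower calls rose and higher calls fell under both settings. The median log2 fold change of all genes was -0.07 with upper quartile scaling and -0.10 with no scaling factors, against -0.02 with TMM. The share of members called stayed below that of all genes in each direction under both settings. The count of higher members was 3 without budesonide replicate 1 or untreated replicate 2 and 8 without budesonide replicate 2 or 3.

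**Figure D2:**
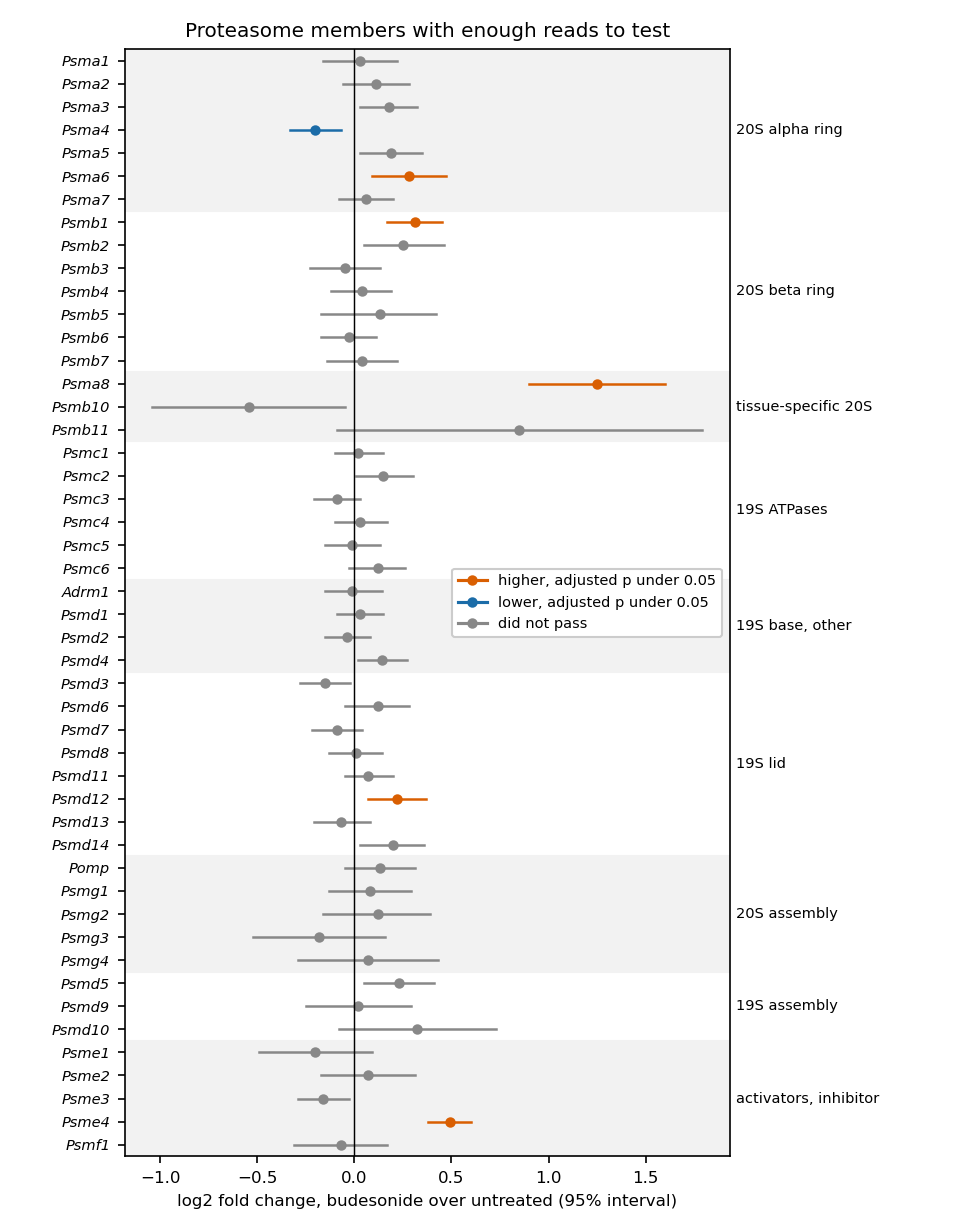
Log2 fold change of budesonide over untreated with its 95% interval (horizontal axis) for each of the 48 tested members, grouped by place in the complex. Orange marks the 5 that rose, blue Psma4, which fell, and grey those that did not pass. With upper quartile scaling 4 members instead of 1 were called lower, and lower calls over all genes rose too.

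Promoter sequences were matched by symbol in a RefSeq table (build GRCm38.p6, another build than the GRCm39 named for the counts). The table held 45 promoter windows of 42 of the 50 members, each running from 250 bases before to 50 bases after a start. Psma8, Psmb1, Psmb2, Psmb7, Psmc3, Psmd3, Psmd7 and Psmg2 had no window and were not searched. The windows of 3 members past the test are shown for the 150 bases before the start, since these genes differed in direction. Psme4 lies at chr11:30771625-30771774 (plus strand), Psmd12 at chr11:107479378-107479527 (plus strand) and Psma4 at chr9:54950709-54950858 (plus strand). Capitals mark the part before the start of a TGACNNNGC match, a motif explained after the sequences.
Psme4: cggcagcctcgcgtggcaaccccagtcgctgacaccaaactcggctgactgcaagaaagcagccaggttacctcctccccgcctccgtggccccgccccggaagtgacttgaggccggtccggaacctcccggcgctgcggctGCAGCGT
Psmd12: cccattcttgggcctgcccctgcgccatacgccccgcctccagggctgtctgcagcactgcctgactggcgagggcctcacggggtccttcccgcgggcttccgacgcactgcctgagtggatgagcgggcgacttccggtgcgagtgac
Psma4: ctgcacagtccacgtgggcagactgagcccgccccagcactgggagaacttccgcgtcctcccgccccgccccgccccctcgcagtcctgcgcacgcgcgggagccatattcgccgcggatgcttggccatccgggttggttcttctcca

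All 3 stretches were rich in G and C (69.3% in Psme4, 70.0% in Psmd12 and 70.0% in Psma4). The windows were searched on both strands for TGACNNNGC, letters of the antioxidant response element that NFE2L1 and NFE2L2 bind, and for CCAAT, the letters bound by the factor NF-Y. TGACNNNGC stood in 7 of 45 member windows (15.6%), against 12.4% of all 32851 windows in the table. CCAAT stood in 15 of 45 (33.3%), against 37.4% of all windows. The 7 matches to TGACNNNGC are shown with up to 10 bases on either side, read along the gene, with the match in capitals, since the factors that bind it are measured at the end of the results.
Psmb5 (chr14:54618024-54618052, minus strand): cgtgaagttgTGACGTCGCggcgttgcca
Psmb6 (chr11:70525338-70525366, plus strand): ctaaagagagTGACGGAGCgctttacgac
Psmd9 (chr5:123228149-123228177, plus strand): atctagccggTGACCCCGCccacttccaa
Adrm1 (chr2:180171416-180171444, plus strand): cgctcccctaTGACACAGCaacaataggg
Psmc6 (chr14:45329587-45329615, plus strand): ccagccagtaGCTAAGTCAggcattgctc
Psmd12 (chr11:107479278-107479299, plus strand): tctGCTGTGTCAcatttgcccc
Psme4 (chr11:30771758-30771786, plus strand): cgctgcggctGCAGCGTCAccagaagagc

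In Psmc6, Psmd12 and Psme4 the motif reads along the opposite strand, and in Psme4 it runs across the start. The matches in Psmb6 and Psmb5, both catalytic subunits, began 9 and 47 bases before the start. A match is a stretch of letters and was not tested as a binding site.

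The largest rise was that of Psma8, the spermatocyte alpha subunit. Psma8 had 15.6, 17.5 and 12.9 CPM in budesonide libraries, against 5.34, 6.89 and 7.23 CPM in untreated libraries. Every budesonide library was above every untreated library. The log2 fold change was 1.25 ± 0.17 (SE), 2.38-fold (edgeR adjusted p = 1.18e-07; DESeq2 adjusted p = 3.07e-06). The values rest on 111, 119 and 70 reads in budesonide libraries and 35, 49 and 46 in untreated libraries.

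Psma7, the alpha subunit whose place Psma8 takes in spermatocytes, had 122.7, 130.1 and 109.4 CPM in budesonide libraries, against 110.8, 112.1 and 126.5 CPM in untreated libraries. Its groups overlapped, and the log2 fold change of 0.06 (95% interval -0.08 to 0.20) did not pass. Per length of transcript, Psma8 made up 6.44%, 6.78% and 5.98% of the summed Psma7 and Psma8 level in budesonide libraries, against 2.53%, 3.21% and 2.99% in untreated libraries. Psma7 thus remained the main form by level in all 6 libraries. All 50-base windows of both transcripts were unique among annotated mouse transcripts, so reads of the pair could be told apart. Of 7 germ cell markers 6 were tested, and 3 were higher and none lower, against 15.2% of all genes higher and 13.5% lower. The summed level of the 7 was 70.6 to 79.9 CPM in budesonide libraries and 49.7 to 54.5 CPM in untreated libraries. The part of germ cell gene activity in the rise of Psma8 was not tested.

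Psmb8, Psmb9 and the thymus subunit Psmb11 had 14 reads or fewer in every library, where 3 reads correspond to 0.422 to 0.552 CPM, and Psmb10 had 17 to 47. Psmb8 had 7, 3 and 6 reads in budesonide libraries, against 5, 10 and 10 in untreated libraries, and Psmb9 had 10, 12 and 6 reads in budesonide libraries, against 5, 8 and 6 in untreated libraries. Neither had enough reads for a test, and the groups overlapped for both. Of the 50-base windows of Psmb9 87.5% were unique, the others being shared with Tap1.

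Psmb10, the immunoproteasome counterpart of Psmb7, had 5.35, 3.83 and 3.13 CPM in budesonide libraries, against 4.88, 6.61 and 6.76 CPM in untreated libraries. Its groups overlapped, and the log2 fold change of -0.54 (95% interval -1.04 to -0.05) did not pass after adjustment (edgeR adjusted p = 0.0948, and 0.0391 without budesonide replicate 1). Psmb11, the thymus subunit, was at 1.55, 2.06 and 1.84 CPM in budesonide libraries, against 1.52, 0.984 and 0.471 CPM in untreated libraries, where replicate 3 had 3 reads, and did not pass either (edgeR adjusted p = 0.181). Per length, the immunoproteasome form averaged 3.19% ± 1.52 of the summed Psmb5 and Psmb8 level in budesonide libraries and 4.93% ± 1.79 in untreated libraries (SD, n = 3 each). For Psmb9 beside Psmb6 the share was 0.825% ± 0.258 with budesonide and 0.526% ± 0.080 in untreated libraries, and for Psmb10 beside Psmb7 it was 6.56% ± 1.45 with budesonide and 9.69% ± 1.70 in untreated libraries. The constitutive catalytic subunits were thus the main forms in both groups. Only 42.9% of the 50-base windows of Psmb5 and 71.9% of those of Psmb7 were unique, against 94.2% for Psmb8 and 100% for Psmb10. The size of the Psmb8 and Psmb10 shares is therefore uncertain if shared reads were split or dropped.

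The 14 constitutive core subunits gave 2 rises and 1 fall, or 21.4% called, against 28.7% of all genes, with log2 fold changes from -0.20 to 0.31 around a median of 0.08, which was 0.01 when no scaling factors were used. Their summed level was 1070.3, 1031.9 and 1028.8 CPM in budesonide libraries, against 986.9, 969.8 and 1025.8 CPM in untreated libraries. The lowest budesonide sum lay just above the highest untreated sum. This gap rests on the TMM scaling, whose factors were 0.9706 for budesonide replicate 3 and 1.018 for untreated replicate 3. Psmb1, a beta ring subunit without catalytic activity, had 147.7, 128.5 and 125.9 CPM in budesonide libraries, against 104.6, 110.1 and 110.5 CPM in untreated libraries. All budesonide values lay above all untreated values. The log2 fold change was 0.31 ± 0.07 (SE), 1.24-fold (edgeR adjusted p = 0.000318; DESeq2 adjusted p = 0.00163).

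The alpha ring subunits Psma6 and Psma4 moved in opposite directions by small amounts. Psma6 had 50.7, 49.7 and 50.7 CPM in budesonide libraries, against 48.3, 35.9 and 40.7 CPM in untreated libraries, a log2 fold change of 0.28 ± 0.09 (SE; edgeR adjusted p = 0.0198). The budesonide libraries were close together and above the untreated ones, which were spread out. DESeq2 gave Psma6 an adjusted p of 0.0828, and in edgeR the adjusted p was 0.0586 without budesonide replicate 1, 0.227 without untreated replicate 2 and 0.0511 without untreated replicate 3. The call was also lost with upper quartile scaling (edgeR adjusted p = 0.0569), with no scaling factors (edgeR adjusted p = 0.106) and with all low counts kept (edgeR adjusted p = 0.0657).

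Psma4 had 161.2, 139.7 and 147.3 CPM in budesonide libraries, against 181.2, 163.5 and 169.2 CPM in untreated libraries, a log2 fold change of -0.20 ± 0.06 (SE; edgeR adjusted p = 0.0163). The groups were separated by a narrow gap. Its call was lost in DESeq2 (adjusted p = 0.140), in limma (adjusted p = 0.0775) and, in edgeR, without budesonide replicate 2 (adjusted p = 0.139) or untreated replicate 1 (adjusted p = 0.116). Only 68.5% of its 50-base windows were unique, the rest being shared mainly with the annotated copy Gm6542, so its count is uncertain if such reads were split or dropped.

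**Figure D3:**
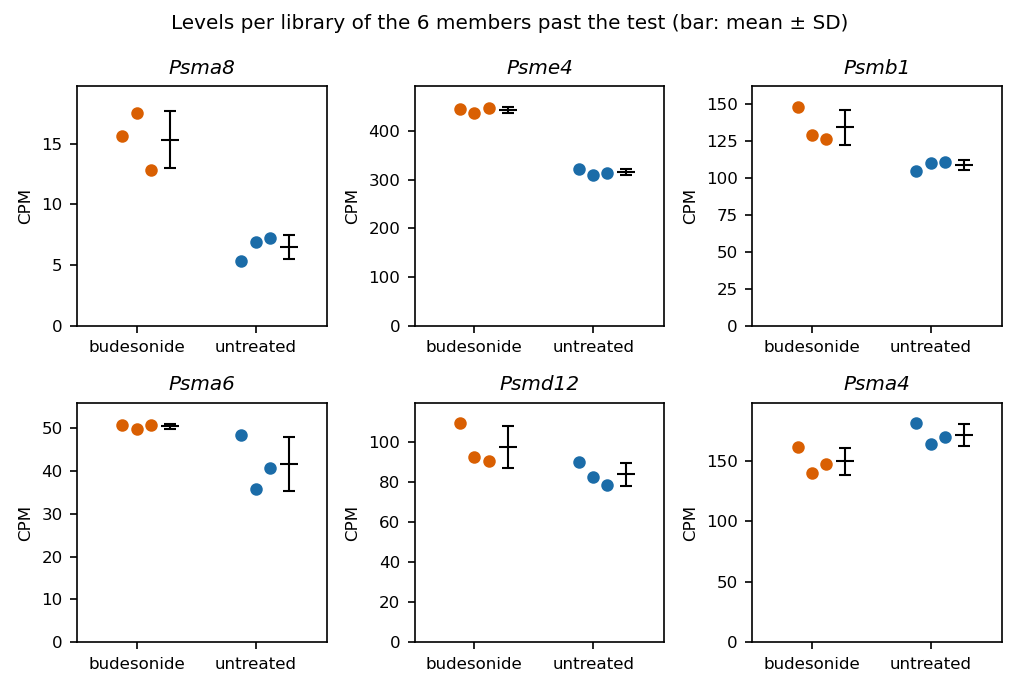
CPM in each library (points) with mean and SD (bars) for the 6 members past the test, budesonide in orange and untreated in blue, each axis from 0. Psma8 and Psme4 show wide gaps between the groups, while Psma6, Psmd12 and Psma4 are separated by narrow ones.

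The 3 constitutive catalytic subunits did not pass the test. Psmb5, which carries the chymotrypsin-like site, had 14.9, 15.7 and 12.9 CPM in budesonide libraries, against 13.1, 14.8 and 12.1 CPM in untreated libraries. Psmb6, the caspase-like subunit, had 102.8, 94.3 and 111.8 CPM in budesonide libraries, against 101.8, 110.4 and 102.4 CPM in untreated libraries. Psmb7, the trypsin-like subunit, had 56.8, 44.6 and 53.3 CPM in budesonide libraries, against 51.5, 48.9 and 50.1 CPM in untreated libraries. The groups overlapped for each of them. The 95% intervals of their log2 fold changes were -0.17 to 0.42 for Psmb5, -0.17 to 0.11 for Psmb6 and -0.14 to 0.22 for Psmb7, so that changes beyond 0.42 in size lie outside all 3. Of the 11 constitutive core subunits that did not pass, all had intervals within 0.5 of zero, the widest limits being -0.23 and 0.46.

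Psmb5 also stood lowest of the 32 constitutive core and regulatory subunits per length of transcript, at 16.1 CPM per kb with budesonide and 14.8 CPM per kb in untreated libraries. Psmd4 stood highest, at 220.5 CPM per kb with budesonide and 199.2 CPM per kb in untreated libraries, and the median subunit was at 55.6 CPM per kb with budesonide and 55.1 CPM per kb in untreated libraries. Only 42.9% of the 50-base windows of Psmb5 were unique, against 100% for Psmd4. Among the others, fewer than 50% were unique for Adrm1 (22.0%), Psme2 (40.7%), Psmb3 (44.2%) and Psma5 (44.6%), so the levels of these 5 genes, as set against other genes, are uncertain. The order of levels over the 32 subunits was nearly the same in the groups (Spearman's rho 0.988 across genes, which share the libraries).

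**Figure D4:**
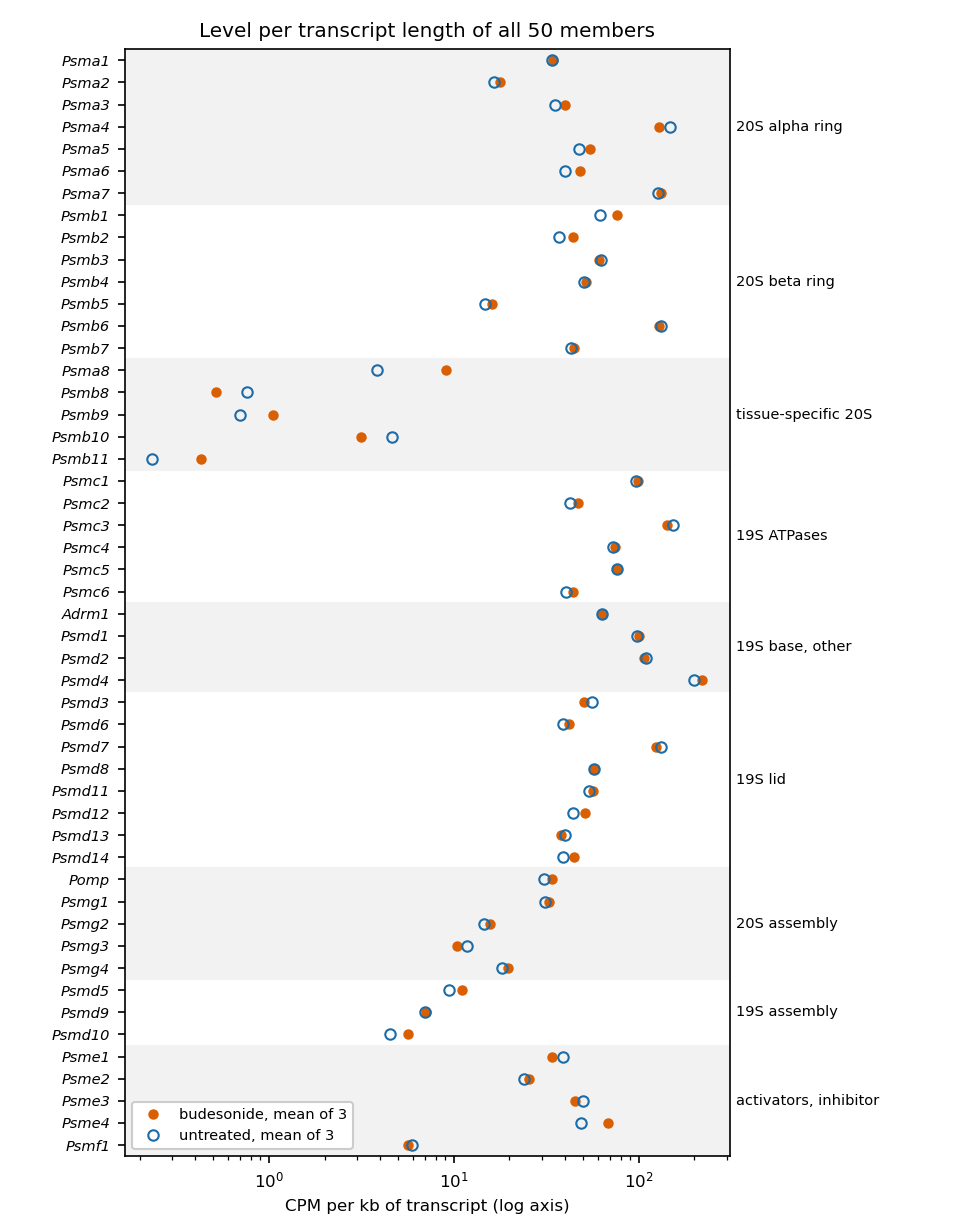
Mean level per kb of transcript (log axis) of all 50 members in budesonide (filled orange) and untreated libraries (open blue), n = 3 each. Constitutive subunits lie between 14.8 and 220.5 CPM per kb, and all 5 tissue-specific subunits lie below them in both groups.

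In the regulatory particle 1 of 18 subunits was higher and none lower in edgeR (DESeq2 called none in either direction), a share called of 5.56%, against 28.7% of all genes (15.2% higher and 13.5% lower). At an unadjusted p under 0.05 in edgeR there were 4 higher and 1 lower of the 18. Over all 17155 genes there were 3328 higher and 3142 lower at that limit. The whole core particle, tissue-specific subunits included, had 3 higher and 1 lower of 17, or 23.5%, against 28.7% of all genes, and the difference between the particles was not tested. Log2 fold changes in the regulatory particle ran from -0.15 to 0.22 around a median of 0.03, which was -0.05 with no scaling factors. That setting called 3 lower and upper quartile scaling called 2 lower, while lower calls over all genes rose under both settings too. The summed level of the regulatory particle was 2712.1, 2536.0 and 2728.6 CPM in budesonide libraries, against 2679.7, 2575.3 and 2601.6 CPM in untreated libraries. These sums overlapped. The member that rose was Psmd12, a scaffold subunit of the lid. Psmd12 had 109.2, 92.6 and 90.3 CPM in budesonide libraries, against 89.8, 82.7 and 78.7 CPM in untreated libraries, a log2 fold change of 0.22 ± 0.07 (SE; edgeR adjusted p = 0.0206). The lowest budesonide value exceeded the highest untreated value by little. DESeq2 gave an adjusted p of 0.0724, and in edgeR the call was lost without budesonide replicate 1 (adjusted p = 0.297), untreated replicate 2 (adjusted p = 0.0711) or untreated replicate 3 (adjusted p = 0.0917). Upper quartile scaling (edgeR adjusted p = 0.0692), no scaling factors (0.146) and keeping all low counts (0.0991) ended it as well.

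None of the 6 base ATPases Psmc1 to Psmc6 passed in edgeR or DESeq2, with log2 fold changes from -0.09 to 0.15. At an unadjusted p under 0.05 in edgeR 1 was higher and none lower, against 3328 higher and 3142 lower of all 17155 genes. The summed level of the ATPases was 799.0, 749.9 and 795.5 CPM in budesonide libraries, against 767.2, 765.7 and 795.3 CPM in untreated libraries, which overlapped. Psmd4, which binds ubiquitin chains, had 283.3, 270.2 and 327.4 CPM in budesonide libraries, against 263.3, 261.1 and 271.5 CPM in untreated libraries. Its groups overlapped slightly, and the log2 fold change of 0.14 (95% interval 0.02 to 0.27) did not pass after adjustment (edgeR adjusted p = 0.0723).

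Adrm1, another ubiquitin receptor of the base, had 95.2, 89.0 and 106.5 CPM in budesonide libraries, against 104.7, 92.2 and 94.4 CPM in untreated libraries, overlapping between groups. Psmd14, the lid enzyme that removes ubiquitin from the substrate, had 72.7, 74.5 and 58.8 CPM in budesonide libraries, against 58.4, 61.0 and 61.4 CPM in untreated libraries. Budesonide replicates 1 and 2 were above all untreated libraries and replicate 3 was among them. Psmd14 did not pass (edgeR adjusted p = 0.0681), but did without budesonide replicate 3 (edgeR adjusted p = 0.0054). Of the 17 regulatory subunits that did not pass, all had 95% intervals within 0.5 of zero on the log2 scale, the widest limits being -0.28 and 0.36.

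None of the 8 assembly factors passed in either direction in edgeR or DESeq2, against 28.7% of all genes called in edgeR. At an unadjusted p under 0.05 in edgeR 1 was higher and none lower, against 3328 higher and 3142 lower of all 17155 genes. The median log2 fold change of the 8 assembly factors was 0.10 (range -0.18 to 0.32). Pomp, which matures the beta ring, had 53.1, 57.8 and 49.1 CPM in budesonide libraries, against 54.6, 47.2 and 44.6 CPM in untreated libraries. Its groups overlapped. The alpha ring chaperone pair Psmg1 and Psmg2 works upstream of Pomp. Psmg1 had 33.2, 37.8 and 31.2 CPM in budesonide libraries, against 33.5, 28.5 and 35.5 CPM in untreated libraries, and Psmg2 had 17.9, 16.2 and 15.8 CPM in budesonide libraries, against 14.9, 15.04 and 16.2 CPM in untreated libraries. The second pair, Psmg3 and Psmg4, was lower in level: Psmg3 had 8.59, 10.01 and 9.01 CPM in budesonide libraries, against 9.76, 10.3 and 11.3 CPM in untreated libraries, and Psmg4 had 9.58, 8.54 and 14.5 CPM in budesonide libraries, against 8.69, 10.8 and 11.0 CPM in untreated libraries. The groups overlapped for all 4 chaperones, with log2 fold changes of 0.08 for Psmg1, 0.12 for Psmg2, -0.18 for Psmg3 and 0.07 for Psmg4.

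Of the base chaperones, Psmd5 came closest to the threshold. Psmd5 had 51.4, 48.7 and 45.8 CPM in budesonide libraries, against 46.0, 40.2 and 38.5 CPM in untreated libraries, a log2 fold change of 0.23 (95% interval 0.05 to 0.41; edgeR adjusted p = 0.0505). Only the lowest budesonide and the highest untreated value crossed. Psmd9 had 18.9, 16.2 and 20.04 CPM in budesonide libraries, against 20.9, 18.1 and 15.1 CPM in untreated libraries, and Psmd10 (gankyrin) had 7.18, 7.65 and 9.56 CPM in budesonide libraries, against 6.25, 6.75 and 6.28 CPM in untreated libraries. The Psmd10 groups did not overlap, but at this depth the interval of its log2 fold change ran from -0.08 to 0.73. Intervals of 6 of the 8 assembly factors lay within 0.5 of zero.

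Among the activators, Psme4 rose. Psme4 encodes PA200, a large nuclear cap of the core particle known from spermatogenesis and from DNA repair. It had 444.6, 436.8 and 447.3 CPM in budesonide libraries, against 322.1, 309.5 and 313.8 CPM in untreated libraries. The groups were far apart and each was tight. The log2 fold change was 0.49 ± 0.05 (SE), 1.41-fold (edgeR adjusted p = 4.42e-10; DESeq2 adjusted p = 2.82e-16). Per length, Psme4 made up 38.5%, 41.9% and 38.3% of the summed level of Psme1 to Psme4 in budesonide libraries, against 30.0%, 29.5% and 30.5% in untreated libraries.

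The other activators did not pass. Psme3, the nuclear PA28 gamma, had 122.7, 112.6 and 125.6 CPM in budesonide libraries, against 136.3, 133.4 and 132.4 CPM in untreated libraries. All budesonide values were below all untreated values, yet the log2 fold change of -0.16 (95% interval -0.29 to -0.03) had an edgeR adjusted p of 0.0612. It passed as lower with upper quartile scaling (edgeR adjusted p = 0.00586) and with no scaling factors (edgeR adjusted p = 0.00234).

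Psme1 and Psme2, which form the interferon-induced PA28, gave log2 fold changes of opposite sign. Psme1 had 44.4, 28.4 and 40.4 CPM in budesonide libraries, against 49.8, 40.6 and 39.6 CPM in untreated libraries. Psme2 had 22.4, 24.4 and 26.5 CPM in budesonide libraries, against 19.2, 26.2 and 24.0 CPM in untreated libraries. Both overlapped between groups, with budesonide replicate 2 the lowest of all 6 libraries for Psme1. Psmf1 (PI31), an inhibitor of the isolated core, had 20.4, 23.3 and 20.8 CPM in budesonide libraries, against 22.1, 22.4 and 23.3 CPM in untreated libraries, and overlapped as well.

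**Figure D5:**
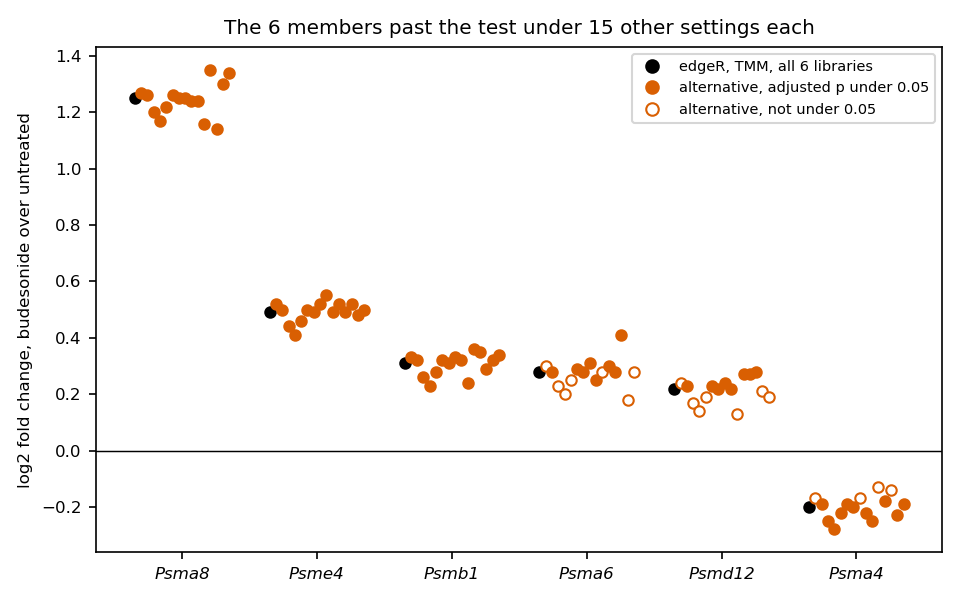
Log2 fold change of budesonide over untreated (vertical axis) of the 6 members past the test, with all 6 libraries (black) and under 15 other settings each (orange), open where the adjusted p was not under 0.05. Psma8, Psme4 and Psmb1 stay filled under every setting, and no value of the 6 changes sign.

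Of 17 tested proteasome-associated and shuttle genes 1 rose and 3 fell (median log2 fold change 0.08), a share of 23.5% against 28.7% of all genes. Ecpas, a large adaptor that clamps core and regulatory particle together, had 92.8, 101.7 and 86.8 CPM in budesonide libraries, against 123.6, 125.3 and 125.1 CPM in untreated libraries (log2 fold change -0.41 ± 0.07, SE; edgeR adjusted p = 4.52e-06). All budesonide libraries were well below the untreated ones. Ubqln2, a shuttle receptor for ubiquitinated proteins, fell too (log2 fold change -0.29 ± 0.07, SE; edgeR adjusted p = 0.000636). Akirin2, which brings proteasomes into the nucleus, had a log2 fold change of 0.24 ± 0.08 (SE; edgeR adjusted p = 0.0171), a call lost in DESeq2 with an adjusted p of 0.0598. In edgeR it was also lost with upper quartile scaling (adjusted p = 0.0588), no scaling factors (0.109) and all low counts kept (0.113), and without budesonide replicate 1 (0.0834) or untreated replicate 2 (0.0677). Sem1, the small lid subunit that the name rule leaves out, averaged 124.7 ± 6.85 CPM with budesonide and 118.2 ± 6.66 CPM in untreated libraries and did not pass.

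Of 8 regulators of proteasome genes 1 rose and 1 fell (median log2 fold change -0.00), a share of 25%, close to the 28.7% of all genes. Ddi2 stands in both this list and the one before. Nfe2l1 itself had 166.7, 156.3 and 169.5 CPM in budesonide libraries, against 160.8, 135.8 and 145.0 CPM in untreated libraries, overlapping between groups (log2 fold change 0.16 ± 0.06, SE). Its edgeR adjusted p was 0.0647, and 0.000521 with offsets for GC content and length. Its relative Nfe2l2, the oxidative stress factor NRF2, had 67.6, 63.1 and 57.9 CPM in budesonide libraries, against 40.6, 41.5 and 49.2 CPM in untreated libraries, and rose (log2 fold change 0.53 ± 0.09, SE; edgeR adjusted p = 3.62e-06). Ddi2, the protease known to activate NFE2L1, had 85.4, 82.1 and 80.9 CPM in budesonide libraries, against 111.6, 108.0 and 100.5 CPM in untreated libraries, and fell (log2 fold change -0.37 ± 0.07, SE; edgeR adjusted p = 3.81e-05). For Nfe2l2 and Ddi2 the groups did not overlap. Of the 7 members whose promoter window held TGACNNNGC, Psme4 and Psmd12 were called higher, the call of Psmd12 being lost under 7 of 15 alternatives, and Psmb5, Psmb6, Psmc6, Psmd9 and Adrm1 did not pass. With 28.7% of all genes called, 2 of 7 is close to the background.

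Rps27a, which encodes ubiquitin fused to a ribosomal protein, had 527.5, 468.6 and 467.5 CPM in budesonide libraries, against 393.6, 372.5 and 411.3 CPM in untreated libraries. All budesonide values lay above all untreated values, and the log2 fold change was 0.31 ± 0.06 (SE; edgeR adjusted p = 2.17e-05).

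The genes of antigen presentation and interferon signalling, which are induced together with the immunoproteasome, gave 6 lower and no higher calls among 9 tested, or 66.7% called, against 28.7% of all genes (median log2 fold change -0.49, against -0.02 for all genes). Erap1, which trims peptides for MHC class I, had 4.79, 6.18 and 5.15 CPM in budesonide libraries, against 9.76, 8.30 and 10.2 CPM in untreated libraries (log2 fold change -0.80 ± 0.20, SE; edgeR adjusted p = 0.00154). The interferon regulatory factor Irf1 had 24.9, 29.7 and 27.2 CPM in budesonide libraries, against 37.5, 37.3 and 33.9 CPM in untreated libraries (log2 fold change -0.41 ± 0.10, SE; edgeR adjusted p = 0.00170). Both were separated between groups. The class I gene H2-D1 had a log2 fold change of -0.68 ± 0.20 (SE; edgeR adjusted p = 0.00617) and the peptide transporter gene Tap1 one of -0.53 ± 0.16 (SE; edgeR adjusted p = 0.00999). Both calls were lost in DESeq2 (adjusted p = 0.0729 for H2-D1 and 0.101 for Tap1). In edgeR the Tap1 call was also lost without budesonide replicate 1 (adjusted p = 0.0841) or untreated replicate 1 (adjusted p = 0.154). DESeq2 called 2 of the 9 lower, Erap1 and Irf1, against 1318 lower of 14809 genes. Tap2, the tenth listed gene, had too few reads for a test. The fibroblast and feeder markers, whose cells also carry class I genes, were lower in sum with budesonide (15.6 to 17.8 CPM) than in untreated libraries (23.4 to 26.6 CPM), and their part in this fall was not tested.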

How the data were processed

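Stranded mRNA libraries were made from RNA of the aggregates, per the labels' protocols. Per the submitters' processing notes, bcl2fastq, cutadapt 2.5, STAR 2.7.5c, featureCounts 2.0 and DESeq2 were used with build GRCm39. The sources used here do not give the annotation version, the strand setting or the treatment of reads with several matches, so antisense genes and near-identical copies cannot be told apart. The authors deposited raw counts for 53819 symbols and a normalized signal, each count divided by 1 factor per library, for 33560 genes.

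Groups came from the sample titles. Raw counts were tested with edgeR 4.0.16 in R 4.3.3 (filterByExpr with minimum count 10 and total 15, TMM scaling, robust quasi-likelihood fit, Benjamini-Hochberg over 17155 genes, threshold 0.05). CPM is TMM-scaled. Lengths and unique 50-base windows come from the APPRIS principal transcripts of GENCODE M21 (GRCm38). Replicates differed by 1.43 to 3.14 times sampling noise, so none was treated as a repeat deposit of another library. Alternatives were DESeq2 1.42.0, other scalings and filters, limma 3.58.1 on the log2 of the deposited normalized signal plus 1, GC and length offsets (97.3% of genes), a replicate block, a threshold of 0.01 and each library left out.

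Any member could be named, with values per library for catalytic, tissue-specific, ubiquitin-handling, assembly and activator members and those past the test. From each further list at most 4 genes past the test were named, by smallest adjusted p, plus Nfe2l1, Nfe2l2 and Sem1. The listed gene Paaf1 was not analysed here. Some results on ubiquitin genes are not reported here. Members and lists were chosen with earlier results of these data known.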

Additional observations from a re-analysis of the deposited data

How the results depend on the processing

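Psma8, Psme4 and Psmb1 kept direction and call in all 15 alternatives, with log2 fold changes of 1.14 to 1.35, 0.41 to 0.55 and 0.23 to 0.36. Psma4 passed in 11 and Psma6 and Psmd12 in 8 each. Of 1349 values of single genes under the alternatives 74 had the other sign, all of genes called in neither setting. The 5 higher members became 3 in DESeq2, at an adjusted p under 0.01, with all low counts kept, with no scaling factors or with upper quartile scaling, and 8 with RLE size factors, the GC and length offset or the replicate block. Leaving out each library gave 3 to 8. The 1 lower member became 0 in DESeq2, in limma and at an adjusted p under 0.01, 4 with upper quartile scaling and 5 with no scaling factors, and 0 to 3 when libraries were left out. In the core particle the 3 higher calls became 5 with RLE size factors or the replicate block (2 to 5 with a library left out), and the 1 lower call became 0 in DESeq2, in limma and at an adjusted p under 0.01 (0 to 2). In the regulatory particle the 1 higher call became 0 in DESeq2, at an adjusted p under 0.01, with all low counts kept, with no scaling factors or with upper quartile scaling, and 2 with the GC and length offset (0 to 3), while the lower calls went up to 2 with upper quartile scaling and 3 with no scaling factors. Lower calls over all genes also rose with upper quartile scaling and with no scaling factors. Over all genes the 2316 lower calls were 1318 in DESeq2. The cause was not tested. Same-numbered libraries correlated at 0.0404, 0.0595 and -0.0176 in their deviations from group means, and differently numbered ones at -0.0702 to 0.0312. Counting noise enters these deviations, so they cannot decide whether the numbers pair the samples. Depth limits the low members most: Psmb8 and Psmb9 could not be tested, and of the 42 members that did not pass 38 had 95% intervals within 0.5 of zero on the log2 scale.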

Other observations

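Psmc3ip, whose symbol begins like that of a proteasome ATPase but which encodes a partner of the meiotic recombinase DMC1, lies outside the name rule and was picked after its values were seen. It had 27.1, 31.5 and 31.4 CPM in budesonide libraries, against 33.8, 43.2 and 42.6 CPM in untreated libraries, a log2 fold change of -0.42 ± 0.10 (SE; edgeR adjusted p = 0.00165). All budesonide values lay below all untreated values. Of the 6 germ cell markers tested 5 had positive log2 fold changes, against 8253 of all 17155 genes. Among the 5, Ddx4 (0.13) and Mael (0.12) did not pass. Sycp1 had a negative one (-0.21), which did not pass either. Tex101, with 10 reads or fewer in every library, was not tested, and all its budesonide values lay below all untreated values. The largest log2 fold change of the 6, 1.29, was that of the meiotic axis gene Sycp3. Sycp3 averaged 25.9 ± 4.15 CPM with budesonide and 10.65 ± 0.843 CPM in untreated libraries. Named pseudogene rows held almost no reads. Psma5-ps averaged 0.313 CPM with budesonide and 0.145 CPM in untreated libraries, and Psmb5-ps averaged 0.221 CPM with budesonide and 0.306 CPM in untreated libraries. The copies sharing most 50-base windows with Psma5 and Psmb5 were Gm8394 and Gm3375, whose reads were not examined.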
